A study of Rattus norvegicus with 22 samples.

Results

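The genes described here are the ATP-binding cassette (ABC) transporters of classes A to G and the organic anion transporters of the Slco family, measured in rat liver. They were found by name, as every gene on the array whose symbol starts with Slco, or with Abc, a class letter from a to g and a digit. There were 67 such genes of 26276 gene names on the array, covered by 82 probes, and the brightest probe stood for each gene. The livers came from male Sprague–Dawley rats on a semi-synthetic diet. CD 3 and CD 14 were rats given the control diet for 3 months (n = 5) and 14 months (n = 6), and BD 3 and BD 14 were rats given the BASE-diet for 3 months (n = 5) and 14 months (n = 6). The BASE-diet held 6% salmon fat in place of lard, 8% hydrolysed linden flower extract, 8% pumpkin puree and 1% of a probiotic mixture. Each rat had 1 array, on which its RNA (Cy5 dye, per the labels) was compared with a common reference (Cy3 dye), liver RNA of 10-week-old healthy rats outside the experiment. All values below are the log2 ratio of the rat to this reference, so 0 means equal to the reference and a difference of 1 means a 2-fold difference. The rats were also older at 14 months, so length of feeding and age cannot be told apart in any comparison of times.

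ABC transporters use ATP to move substrates out of cells or between organelles. In hepatocytes, the pumps of the canalicular membrane export bile salts, phospholipid, cholesterol, conjugates and drugs into bile, and pumps of the sinusoidal membrane return conjugates to blood. Slco genes encode the organic anion transporting polypeptides, carriers that take up bile acids, conjugated steroids, thyroid hormone and drugs from blood. Most transporters of class D bring fatty acids into peroxisomes, several of class B lie in mitochondria, and the proteins of classes E and F have no membrane part and act in translation.

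Abcb1b, a multidrug export pump, and the Slco1a genes recur below, so the array's own oligonucleotides for them are shown first. Abcb1b had 2 probes on chromosome 4 of the rn4 build, the first at chr4:21912155-21912214, and the capitals mark the 35 bases that both hold.
Abcb1b first probe: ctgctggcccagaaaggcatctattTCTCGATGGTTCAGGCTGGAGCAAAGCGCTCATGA
Abcb1b second probe: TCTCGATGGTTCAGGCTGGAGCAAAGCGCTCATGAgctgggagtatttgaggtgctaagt
These probes overlap, so their values are not separate evidence. The Slco1a5 and Slco1a6 probes lie at chr4:179793557-179797315, a span that crosses an intron, and chr4:179696829-179696888, and the capitals mark the longest run that they share, of 5 bases.
Slco1a5 probe: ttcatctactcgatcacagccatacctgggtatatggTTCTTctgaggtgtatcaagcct
Slco1a6 probe: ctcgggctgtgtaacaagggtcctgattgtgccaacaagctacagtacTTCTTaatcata
At their best ungapped alignment these match at 21 of 60 positions. Abcg3 and Abcg3l4, near relatives of Abcg2 in rodents, have probes at chr14:5943119-5943178 and on an unplaced part of chromosome 14, and their longest shared run has 8 bases.
Abcg3 probe: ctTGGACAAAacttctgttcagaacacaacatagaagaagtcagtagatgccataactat
Abcg3l4 probe: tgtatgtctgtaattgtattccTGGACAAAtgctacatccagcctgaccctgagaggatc

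Of the 67 genes, 49 were tested. A probe was tested when, in at least 1 of the 4 groups, no array failed to show it well above background in Cy5, which held for 19434 of all 30367 probes. Class A had 9 tested genes of 14, class B 9 of 10, class C 8 of 10, class D 3 of 4, classes E and F 4 of 4, class G 7 of 10 and the Slco family 9 of 15. On all 22 arrays, 39 members were well above background. The 18 members not tested were Abca5, Abca12, Abca13, Abca15, Abca17, Abcb5, Abcc3, Abcc12, Abcd2, Abcg3l3, Abcg4, Abcg8, Slco1c1, Slco4a1, Slco4c1, Slco6b1, Slco6c1 and Slco6d1. Abcg8, the partner of Abcg5, and Slco6b1 were well above background on 0 of 22 arrays, and Abcc3, a sinusoidal pump of conjugated bile acids, on 5. The detections of these members lay mainly on 4 arrays of high signal. CD 3 rat 1 had 13 of them, BD 3 rat 5 had 15, CD 14 rat 1 had 13 and CD 14 rat 3 had 11, while the other 18 arrays had between 0 and 4.

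**Figure D1:**
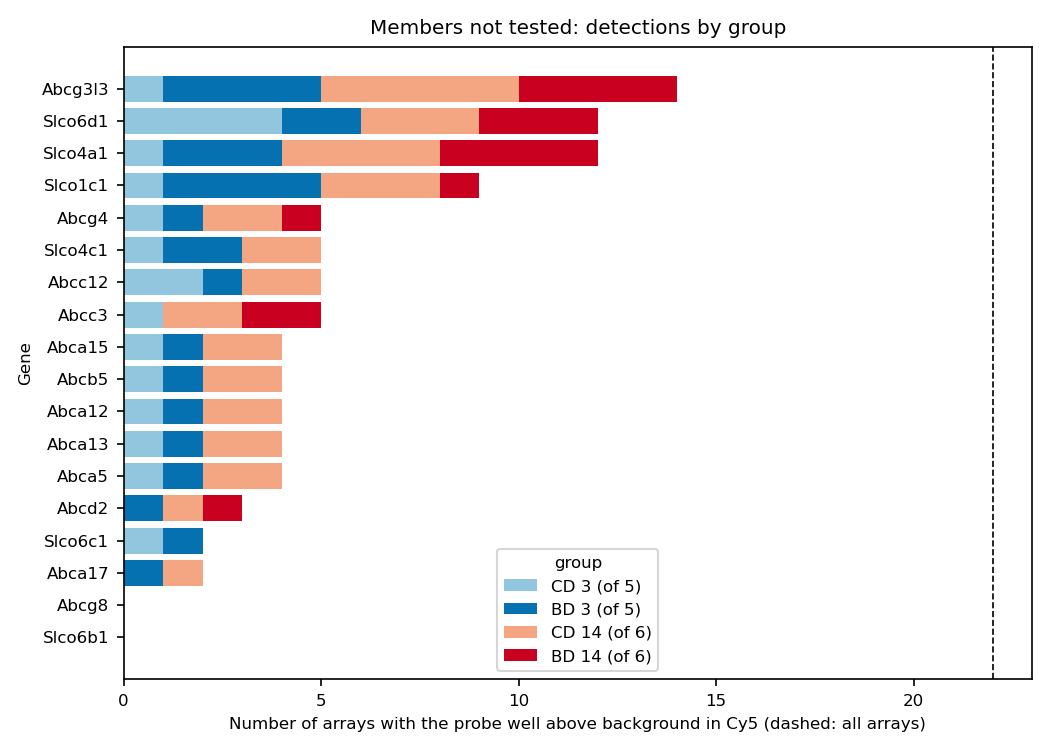
The 18 members that were not tested, with the number of arrays (x axis) on which each probe was well above background in Cy5, split by group; the dashed line marks all 22 arrays. Abcg3l3 reached 14 arrays, and Abcg8 and Slco6b1 were well above background on 0.

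The arrays differed in signal. Between 52.4% and 93.6% of spots were well above background, with the lowest share on CD 3 rat 4 and the highest on CD 3 rat 1. Over the tested members, CD 3 rat 4 lay outside the range of the rest of its group for 39 of 49 genes, and its median distance from the mean of the rest was 0.90. CD 3 rat 2 also stood apart by this median distance, at 0.81, and for the other arrays it was between 0.19 and 0.57. CD 3 rat 2 was lowest or highest of its group for 25 genes, but BD 3 rat 2 was so for 28. Over all tested probes the median distance was 0.78 for CD 3 rat 4, 0.66 for CD 3 rat 1 and 0.52 for CD 3 rat 2. The arrays lay on 5 slides, and all 6 BD 14 arrays shared 1 slide with 2 CD 14 arrays, while BD 3 and BD 14 had no slide in common. Differences between groups were tested with limma, with Benjamini-Hochberg adjustment across every tested probe, and the p-values measure the spread between these rats. A whole liver holds several cell types, so fewer cells of a type and less RNA per cell cannot be told apart.

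No member passed an adjusted p of 0.05 in any of 7 comparisons. Over all probes, the adjusted threshold was passed by 0% in the comparisons BD 3 with CD 3, BD 14 with CD 14, CD 14 with CD 3 and BD 14 with BD 3 and in the diet by time term, by 0.00515% for diet over both times and by 0.221% for time over both diets. The members are therefore described by their values, with the number at an unadjusted p under 0.05 beside the same share of all probes. Such a p was reached by 21 of 49 members in at least 1 comparison, against 27.6% of all probes. The 7 comparisons share their groups, so a gene can be counted in several. For time over both diets these were 10 of 49 members, 4 higher and 6 lower at 14 months, against 13.6% of all probes (9.16% higher and 4.46% lower). The members' median difference was -0.04, and that of all probes 0.06.

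**Figure D2:**
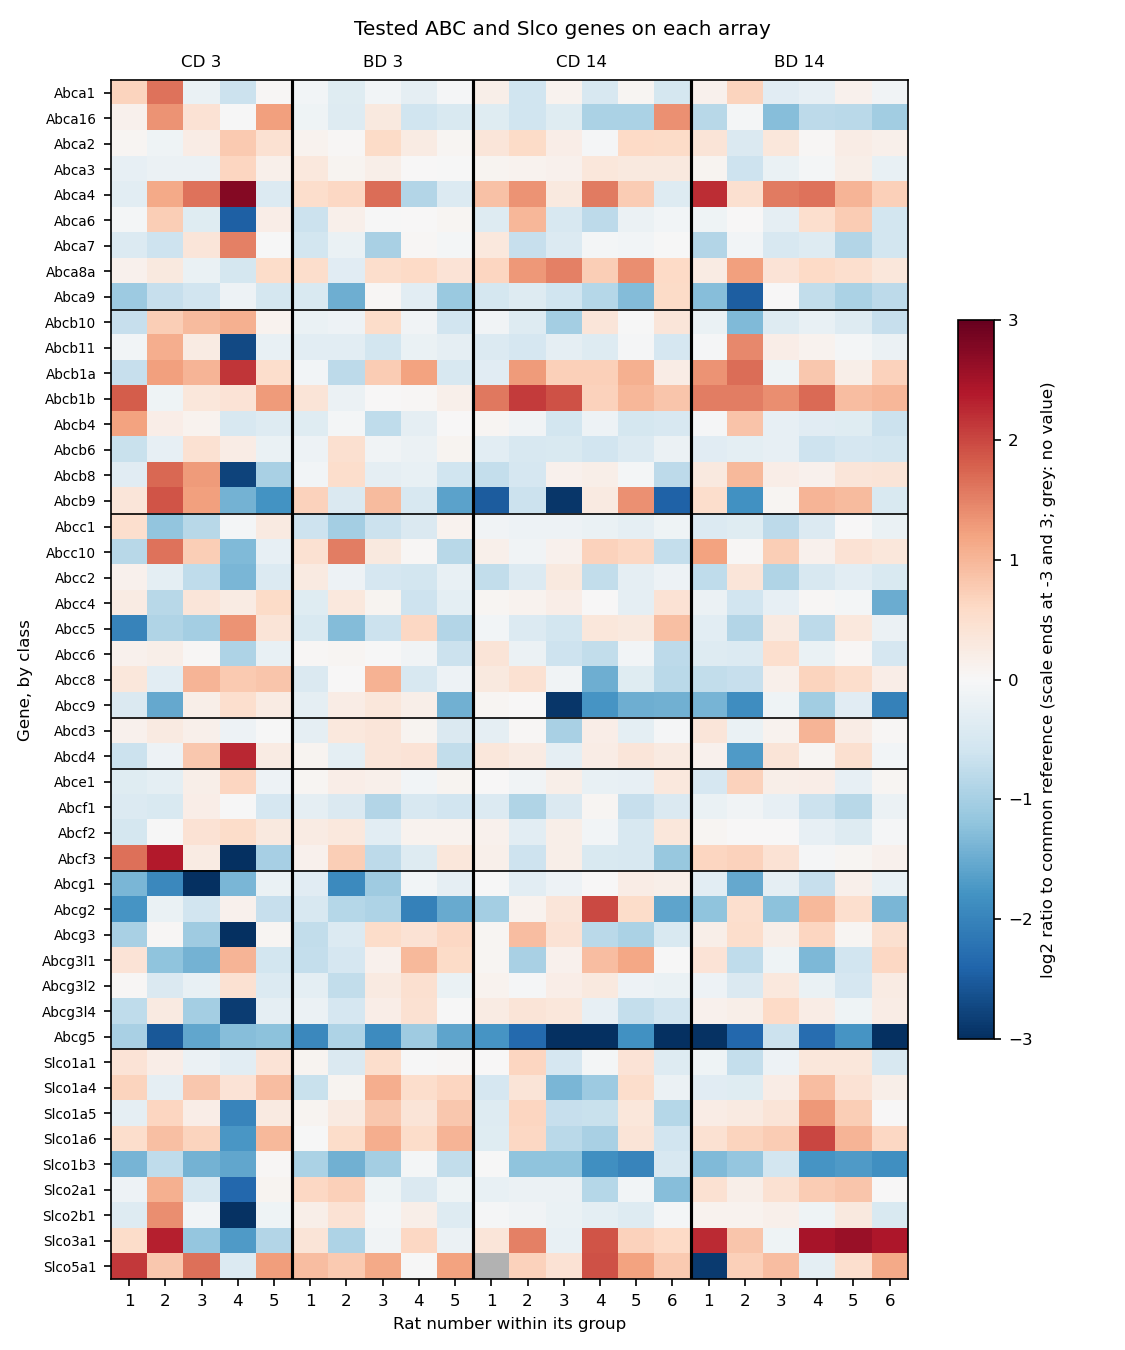
Log2 ratio to the common reference of 47 tested members (rows, grouped by class from A to G and then Slco) on the 22 arrays (columns, grouped by diet and month); the colour scale ends at -3 and 3, and grey marks the 1 missing value, Slco5a1 in CD 14 rat 1. Abcb1b was above the reference on 20 of 22 arrays, Abcg5 below it on all 22, and CD 3 rat 4 shows many members far from the other CD 3 rats.

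Among the canalicular pumps, Abcb1b had the lowest adjusted p with time. In CD 3 its log2 ratios were 1.81, -0.13, 0.34, 0.40 and 1.29, and in BD 3 they were 0.38, -0.18, 0.02, 0.02 and 0.15. In CD 14 they ran from 0.69 to 2.10 with a median of 1.29, and in BD 14 from 0.92 to 1.70 with a median of 1.47. Every BD 14 rat lay above every BD 3 rat, while CD 14 and CD 3 overlapped because CD 3 rats 1 and 5 were also high. The means were 0.74 in CD 3 and 1.35 in CD 14. BD 14 was higher than BD 3 by 1.27 ± 0.31 (SE), or 2.41-fold (limma, adjusted p = 0.241). Over both diets the difference was 0.94 ± 0.22, or 1.92-fold (limma, adjusted p = 0.0794). This was the lowest adjusted p of any member in the 7 comparisons. It passed the threshold in the Cy5 channel alone (1.15, adjusted p = 0.0204), with array weights (1.02, adjusted p = 0.0457), without CD 3 rat 1 (1.07, adjusted p = 0.0257) and without CD 3 rat 5 (1.01, adjusted p = 0.0437). CD 3 rats 1 and 5 were the highest of their group, so leaving out either raised the difference. With 1 array left out, the difference over both diets ran from 0.83 to 1.07. With slide as a block it was 1.02 for both diets, and 2.22 for BD 14 with BD 3 (adjusted p = 0.0943), where no slide holds both groups. The second, overlapping probe gave 1.22 ± 0.45 for BD 14 with BD 3 and 0.98 ± 0.32 over both diets. Between the diets at 14 months, Abcb1b differed by -0.01 (95% interval -0.62 to 0.61).

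The neighbours of Abcb1b on chromosome 4 had smaller time differences. Abcb1a, the other rodent multidrug pump, had a time difference of 0.20 ± 0.32 over both diets, and Abcb4, which moves phosphatidylcholine into bile, had -0.13 ± 0.20 (limma, adjusted p = 0.832 and 0.821). Their rn4 probe positions were chr4:21795859-21795918 for Abcb1a and chr4:22000547-22003326 for Abcb4. Within groups, over 22 arrays, the residuals of Abcb1a and Abcb1b had r = -0.24 and those of Abcb1b and Abcb4 r = 0.36, as a description over arrays that share slides. The Abcb1b promoter from RefSeq (GRCr8, chr4:26279980-26280279, minus strand, 250 bases before to 50 after the start) is given because this member had the lowest adjusted p. The capitals mark the letters CCAAT or their reverse complement ATTGG, the CCAAT box motif.
Abcb1b promoter: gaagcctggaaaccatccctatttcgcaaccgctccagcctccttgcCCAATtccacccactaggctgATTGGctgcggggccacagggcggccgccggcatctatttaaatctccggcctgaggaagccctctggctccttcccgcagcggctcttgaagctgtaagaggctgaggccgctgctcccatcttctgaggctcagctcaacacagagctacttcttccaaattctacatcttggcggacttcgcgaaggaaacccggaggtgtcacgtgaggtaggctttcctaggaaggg
There was 1 match on each strand, and 37.5% of 33469 RefSeq promoter windows of this length hold at least 1.

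Abcg5, which with Abcg8 forms the sterol exporter of the canalicular membrane, was below the reference in every rat, with lower group means at 14 months. Its log2 ratios were -0.96, -2.53, -1.55, -1.28 and -1.22 in CD 3 and -1.94, -0.93, -1.90, -1.07 and -1.58 in BD 3. In CD 14 they ran from -5.14 to -1.76 with a median of -2.86, and in BD 14 from -3.66 to -0.65 with a median of -2.32. The 14-month groups reached far lower than the 3-month groups but overlapped them. CD 14 was lower than CD 3 by a difference of -1.54 ± 0.54, or 2.91-fold (limma, adjusted p = 0.324), and the difference over both diets was -1.17 ± 0.38 (adjusted p = 0.205). With slide as a block these were -2.34 and -1.83. Between diets at 14 months, BD 14 was 0.77 ± 0.52 above CD 14 (adjusted p = 0.952). Abcg8 was well above background on 0 arrays, so only the Abcg5 subunit of the exporter was measured.

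The Abcg5 and Abcg8 genes start next to each other and are read in opposite directions, and their RefSeq promoter windows share 295 bases of chromosome 6. The Abcg5 window (GRCr8, chr6:15717686-15717985, plus strand) is printed for that reason, with the letters GATAA, the core of the GATA factor motif, in capitals.
Abcg5 promoter: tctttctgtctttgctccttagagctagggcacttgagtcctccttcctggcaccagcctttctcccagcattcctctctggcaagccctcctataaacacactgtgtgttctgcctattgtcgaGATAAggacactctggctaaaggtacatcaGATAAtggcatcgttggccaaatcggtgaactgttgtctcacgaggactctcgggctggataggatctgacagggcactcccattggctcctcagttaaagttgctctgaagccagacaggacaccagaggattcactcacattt
It held 2 matches on the plus strand and 0 of the reverse complement TTATC, and 26.5% of all windows held at least 1 match on either strand.

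The other canalicular pumps varied among rats without reaching an unadjusted p under 0.05. Abcb11, the bile salt export pump, lay between -0.56 and -0.20 in BD 3, between -0.50 and -0.03 in CD 14 and between -0.18 and 1.44 in BD 14. CD 3 was widest, at -0.08, 1.08, 0.26, -2.71 and -0.22, where the lowest value was that of rat 4. BD 14 and CD 14 differed by 0.59 (95% interval -0.26 to 1.45). The BD 14 mean included rat 2 at 1.44, and the medians were 0.03 in BD 14 and -0.40 in CD 14. Abcc2, the pump of conjugated bilirubin, had group means from -0.54 to -0.24 and differed by -0.08 between diets at 14 months (95% interval -0.61 to 0.44). Abcg2, the breast cancer resistance protein, had group means of -0.63, -1.16, 0.07 and -0.30 in CD 3, BD 3, CD 14 and BD 14, with an SD between 0.61 and 1.25. Its time difference over both diets was 0.78 ± 0.39 (limma, adjusted p = 0.387). Of the 7 tested canalicular pumps, 1 was higher (Abcb1b) and 1 lower (Abcg5) at an unadjusted p under 0.05 for time over both diets, against 13.6% of all probes. For diet over both times 0 had such a p, against 7.19% of all probes.

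Abcg1 and Abca8a had the lowest adjusted p of the members between CD 14 and CD 3. Abcg1 passes cholesterol to high-density lipoprotein and is known for its role in macrophages, and Abca8a belongs to the Abca5 to Abca10 gene cluster. In CD 3, the log2 ratios of Abcg1 were -1.36, -1.93, -3.10, -1.36 and -0.21, and in BD 3 they were -0.34, -1.91, -1.07, -0.09 and -0.27. In CD 14 they ran from -0.32 to 0.21, and in BD 14 from -1.54 to 0.14 with a median of -0.30. CD 14 lay above CD 3 except that CD 3 rat 5 fell inside its range. The difference was 1.58 ± 0.40, or 2.99-fold (limma, adjusted p = 0.178).

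In CD 3, Abca8a had 0.14, 0.29, -0.20, -0.53 and 0.55, and in CD 14 it ran from 0.59 to 1.52 with a median of 1.01, so that these groups did not overlap. BD 3 had 0.53, -0.33, 0.52, 0.60 and 0.40, and BD 14 ran from 0.25 to 1.22 with a median of 0.47. CD 14 was 0.98 ± 0.24 above CD 3 (limma, adjusted p = 0.178). With 1 array left out, the differences ran from 1.21 to 1.93 for Abcg1 and from 0.83 to 1.10 for Abca8a. The largest were those without CD 3 rat 5, the highest CD 3 rat for both genes (limma, adjusted p = 0.0162 and 0.0373). With slide as a block these differences were 0.47 and 0.31 (adjusted p = 0.895 and 0.897), and on the 1 slide with both groups, of 1 rat each, they were 0.39 and 0.04.

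Markers of Kupffer cells and macrophages were higher in the same comparison. All 6 of the list were higher in CD 14 than in CD 3, and 5 of 6 had an unadjusted p under 0.05 (6.85% of all probes were higher at that p), among them C1qa at 1.28 ± 0.38 and Clec4f at 1.34 ± 0.43 (limma, adjusted p = 0.251 and 0.281). The mean log2 ratio of the list ran from -3.05 to -0.67 in CD 3, from -2.21 to -0.38 in BD 3, from -1.14 to 0.08 in CD 14 and from -1.77 to 0.04 in BD 14. Of 4 tested markers of the sinusoidal endothelium, 1 reached that p, Lyve1 at 1.53 ± 0.43, while Kdr differed by 0.74 ± 0.40, Pecam1 by 0.09 and Cdh5 by -0.36. Of 3 tested genes of the lymphocyte list, 1 did, the pan-leukocyte gene Ptprc at 1.34 ± 0.57, while Cd79b differed by -0.08. Of 6 hepatocyte, 4 cholangiocyte and 3 red cell markers tested, 0 reached it, with median differences of 0.26, 0.51 and 0.35. The part of these cells in the Abcg1 and Abca8a values was not tested.

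Between CD 14 and CD 3, 8 of 49 members had an unadjusted p under 0.05, 3 higher and 5 lower, against 10.1% of all probes (6.85% higher and 3.29% lower). Beside those above, Abcg3l4 was higher by 0.83 ± 0.38 and among the lower ones were Slco1a4, Abcc8 and Abca16 (limma, adjusted p from 0.366 to 0.465 for these 4 genes). The Abcg3l4 difference was 0.35 without CD 3 rat 4 and 0.10 with slide as a block, and its other probe gave -0.11 ± 0.28. That of Abca16, at -0.94, turned to 0.85 in the Cy5 channel alone. Between BD 14 and BD 3, 3 of 49 were counted, Abcb1b and Slco3a1 higher and Abcb6 lower, against 7.44% of all probes (4.76% higher and 2.68% lower).

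Slco3a1, a broadly expressed carrier of prostaglandins and other anions, had the largest time difference over both diets of any member, with wide spread. Its log2 ratios were 0.56, 2.34, -1.16, -1.70 and -0.87 in CD 3 and 0.39, -0.93, -0.10, 0.61 and -0.18 in BD 3. In CD 14 they ran from -0.22 to 1.88 with a median of 0.65, and in BD 14 from -0.13 to 2.59 with a median of 2.32. In BD 14, 4 rats lay above 2 and rats 2 and 3 were lower, at 0.84 and -0.13. BD 14 was 1.77 ± 0.61 above BD 3, or 3.42-fold (limma, adjusted p = 0.486), and the difference over both diets was 1.37 ± 0.43 (adjusted p = 0.189). With 1 array left out it ran from 1.18 to 1.69. The largest was that without CD 3 rat 2, the highest rat of CD 3 (limma, adjusted p = 0.0473).

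**Figure D3:**
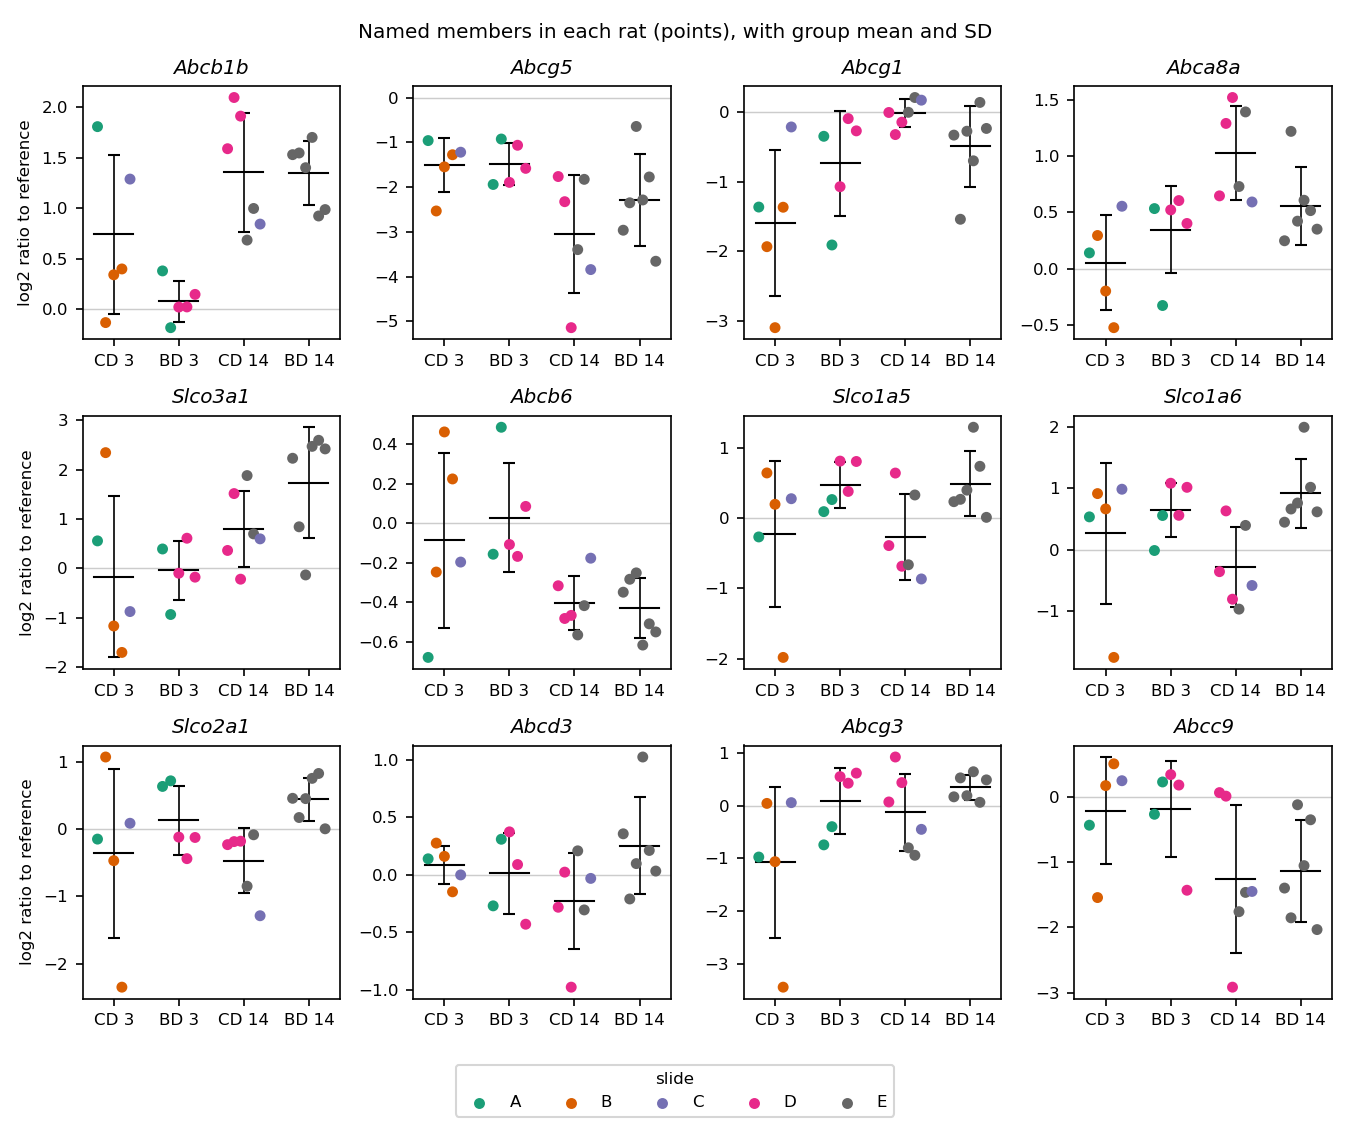
Log2 ratio to the common reference of 12 named members in each rat (points, coloured by slide A to E), with the group mean (line) and SD (bar) for the 4 groups. Abcb1b in BD 14 (0.92 to 1.70) lay above BD 3 (-0.18 to 0.38), and Slco2a1 in BD 14 (0.00 to 0.82) above CD 14 (-1.29 to -0.09).

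Abcb6, Abcb8 and Abcb10 are mitochondrial transporters of class B. Abcb6, a porphyrin transporter, had -0.68, -0.25, 0.46, 0.22 and -0.20 in CD 3 and -0.16, 0.49, -0.11, -0.17 and 0.09 in BD 3. In CD 14 it ran from -0.56 to -0.18 with a median of -0.44, and in BD 14 from -0.62 to -0.25 with a median of -0.43. Every BD 14 rat lay below every BD 3 rat. The difference over both diets was -0.38 ± 0.13, or 1.31-fold (limma, adjusted p = 0.215), and in the Cy5 channel alone it was -0.47 with adjusted p = 0.0322. The other probe of Abcb6 gave -0.32 ± 0.13, and the slide block -0.06.

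Abcb10, needed for haem synthesis in red cell precursors, differed by -0.50 ± 0.22 with time over both diets (limma, adjusted p = 0.331). Abcb8, which also lies in the inner membrane, differed by 0.22 ± 0.37. With diet over both times Abcb10 differed by -0.46 ± 0.22 (adjusted p = 0.686), and that was -0.05 with slide as a block and -0.10 in the Cy5 channel alone. In the same comparison the 3 tested red cell markers also had negative differences, Hbb of -0.87 ± 0.31 (limma, adjusted p = 0.594), Hba-a2 of -0.51 ± 0.29 and Alas2 of -0.38 ± 0.32. The mean log2 ratio of these markers ran from -1.89 to -0.29 in CD 3, from -2.76 to -0.36 in BD 3, from -1.52 to 0.26 in CD 14 and from -1.86 to 0.38 in BD 14. For time over both diets, where Abcb10 was lower, all 3 had positive differences with a median of 0.51. The part of red cells in the Abcb10 values was not tested.

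Other members with a time difference were Abcc9 and Abca16 over both diets and Abcc8 on the control diet. Abcc9 encodes the sulphonylurea receptor of potassium channels in vessels and muscle. It ran from -1.54 to 0.51 in CD 3, from -1.43 to 0.34 in BD 3, from -2.92 to 0.07 in CD 14 and from -2.03 to -0.12 in BD 14. The difference over both diets was -0.99 ± 0.36 (limma, adjusted p = 0.241), and another probe gave -0.71 ± 0.46. Abcc8, the sulphonylurea receptor of pancreatic beta cells, had means of 0.00 in BD 3 and 0.02 in BD 14. It was lower in CD 14 than in CD 3 by -0.86 ± 0.36 (limma, adjusted p = 0.424). Of 5 markers of the exocrine pancreas, 1 was tested, Ctrb1, which differed by -0.68 ± 0.57 in the same comparison. Its log2 ratio ran from -0.74 to 1.16 in CD 3, from -2.73 to 0.04 in BD 3, from -2.54 to -0.07 in CD 14 and from -2.30 to 0.81 in BD 14. The other 4 markers were well above background on 1 to 7 of 22 arrays, and the part of pancreas in the Abcc8 values was not tested. Abca16 was lower at 14 months by -0.74 ± 0.25 over both diets (adjusted p = 0.215), and by -0.07 with slide as a block.

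Between the diets at 14 months, Slco1a6 had the largest positive difference of the 49 members. Slco1a1, Slco1a4, Slco1a5 and Slco1a6 are rodent uptake carriers of the same family on chromosome 4. In CD 14, Slco1a6 ran from -0.97 to 0.63 with a median of -0.47, and in BD 14 from 0.45 to 1.99 with a median of 0.71. It was 0.53, 0.91, 0.66, -1.76 and 0.98 in CD 3 and -0.02, 0.55, 1.08, 0.56 and 1.01 in BD 3. Only CD 14 rat 2, at 0.63, reached the range of BD 14. The 14-month difference was 1.20 ± 0.40, or 2.29-fold (limma, adjusted p = 0.914), and on the slide that holds all BD 14 arrays with 2 CD 14 arrays it was also 1.20.

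Slco1a5 ran from -0.87 to 0.64 in CD 14 with a median of -0.53 and from 0.01 to 1.29 in BD 14 with a median of 0.33. At 3 months it was -0.27, 0.64, 0.20, -1.98 and 0.28 in CD 3 and 0.09, 0.26, 0.81, 0.38 and 0.80 in BD 3. The CD 3 mean of -0.23 included rat 4 at -1.98, and the 3-month medians were 0.20 in CD 3 and 0.38 in BD 3. The diet difference was 0.76 ± 0.36 at 14 months and 0.70 ± 0.39 at 3 months (limma, adjusted p = 0.952 and 0.780). Over both times it was 0.73 ± 0.27 for Slco1a5 and 0.78 ± 0.30 for Slco1a6 (adjusted p = 0.594 and 0.612). Without CD 3 rat 4 these were 0.51 and 0.53, and without the 5 arrays of outlying signal 0.32 and 0.37.

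Slco1a5 and Slco1a6 varied together from rat to rat. Within groups, their residuals had r = 0.96 over 22 arrays and r = 0.94 without CD 3 rat 4, the highest of all 1176 pairs of tested members, whose median r was 0.00. These values share array, dye and slide. The probes printed above share a longest run of 5 bases. Slco1a4 and Slco1a6 had r = 0.58 and Slco1a1 and Slco1a5 r = 0.69.

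The diet difference of the remaining uptake genes was small or variable. Slco1a1 had group means between -0.13 and 0.10 and a 14-month diet difference of -0.15 (95% interval -0.63 to 0.33). Slco1a4 differed by 0.55 ± 0.34 between diets at 14 months, and CD 14 was lower than CD 3 by -0.88 ± 0.36 (limma, adjusted p = 0.411). Slco1b3, whose accession now carries the symbol Slco1b2, is the main liver-specific uptake carrier of rodents. It was below the reference on 21 of 22 arrays, with group means from -1.39 to -0.84, and the diets differed by -0.27 (95% interval -0.99 to 0.45) at 14 months. Slco2b1 ran from -0.39 to -0.03 in CD 14 and from -0.46 to 0.30 in BD 14, with a difference of 0.20 (95% interval -0.68 to 1.07). The list of hepatic uptake genes held 6 tested genes, Slco1a1, Slco1a4, Slco1a5, Slco1b3, Slco2b1 and Slco2a1, without Slco1a6. Of these, Slco1a5 and Slco2a1 were higher and 0 were lower in BD 14 than in CD 14 at an unadjusted p under 0.05, against 3.79% of all probes higher and 0.803% lower.

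Slco2a1, the prostaglandin transporter, is found in endothelium more than in hepatocytes. It ran from -1.29 to -0.09 in CD 14 with a median of -0.21, and from 0.00 to 0.82 in BD 14 with a median of 0.45, so that the groups did not overlap. CD 3 had -0.15, 1.07, -0.47, -2.34 and 0.09, and BD 3 had 0.63, 0.71, -0.12, -0.44 and -0.13. BD 14 was 0.91 ± 0.39 above CD 14, or 1.88-fold (limma, adjusted p = 0.952), and 0.91 above it on their shared slide. The sinusoidal endothelium list, in the same comparison, was lower in 4 of 4 tested markers, with a median difference of -0.36. The part of these cells in the Slco2a1 values was not tested.

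The other members counted for diet at 14 months were Abcd3 and Abca3. Abcd3, the 70-kDa peroxisomal membrane protein, carries branched and long-chain acyl-CoA into peroxisomes. It ran from -0.98 to 0.21 in CD 14 with a median of -0.16 and from -0.21 to 1.02 in BD 14 with a median of 0.15. The groups overlapped, and the difference was 0.48 ± 0.22, or 1.39-fold (limma, adjusted p = 0.952). Abcd2, another peroxisomal transporter, was not tested. Abca3, a phospholipid transporter, was lower in BD 14 by -0.35 ± 0.17, but its other probe gave 0.39 ± 0.36 and the Cy5 channel alone 0.10. In all, 5 of 49 members had an unadjusted p under 0.05 between BD 14 and CD 14, 4 higher and 1 lower, against 4.6% of all probes (3.79% higher and 0.803% lower).

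Between BD 3 and CD 3, 3 of 49 members had an unadjusted p under 0.05, 2 higher and 1 lower, against 7.11% of all probes (4.99% higher and 2.11% lower). The higher ones were Abcg3 and Abcg3l4. Abcg3 had -0.98, 0.04, -1.07, -3.45 and 0.05 in CD 3 and -0.75, -0.40, 0.55, 0.42 and 0.61 in BD 3, and the lowest value was that of CD 3 rat 4. The difference was 1.17 ± 0.50 (limma, adjusted p = 0.640) and 0.58 without that rat. Abcg3l4 differed by 0.92 ± 0.39, and by 0.44 without that rat. Their other probes gave 0.31 ± 0.32 and -0.09 ± 0.29. The residuals of their brightest probes had r = 0.91 over 22 arrays and r = 0.83 without CD 3 rat 4. The lower member was Abca16, at -0.88 ± 0.37 (adjusted p = 0.627), which turned to 1.75 (adjusted p = 0.0499) in the Cy5 channel alone.

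**Figure D4:**
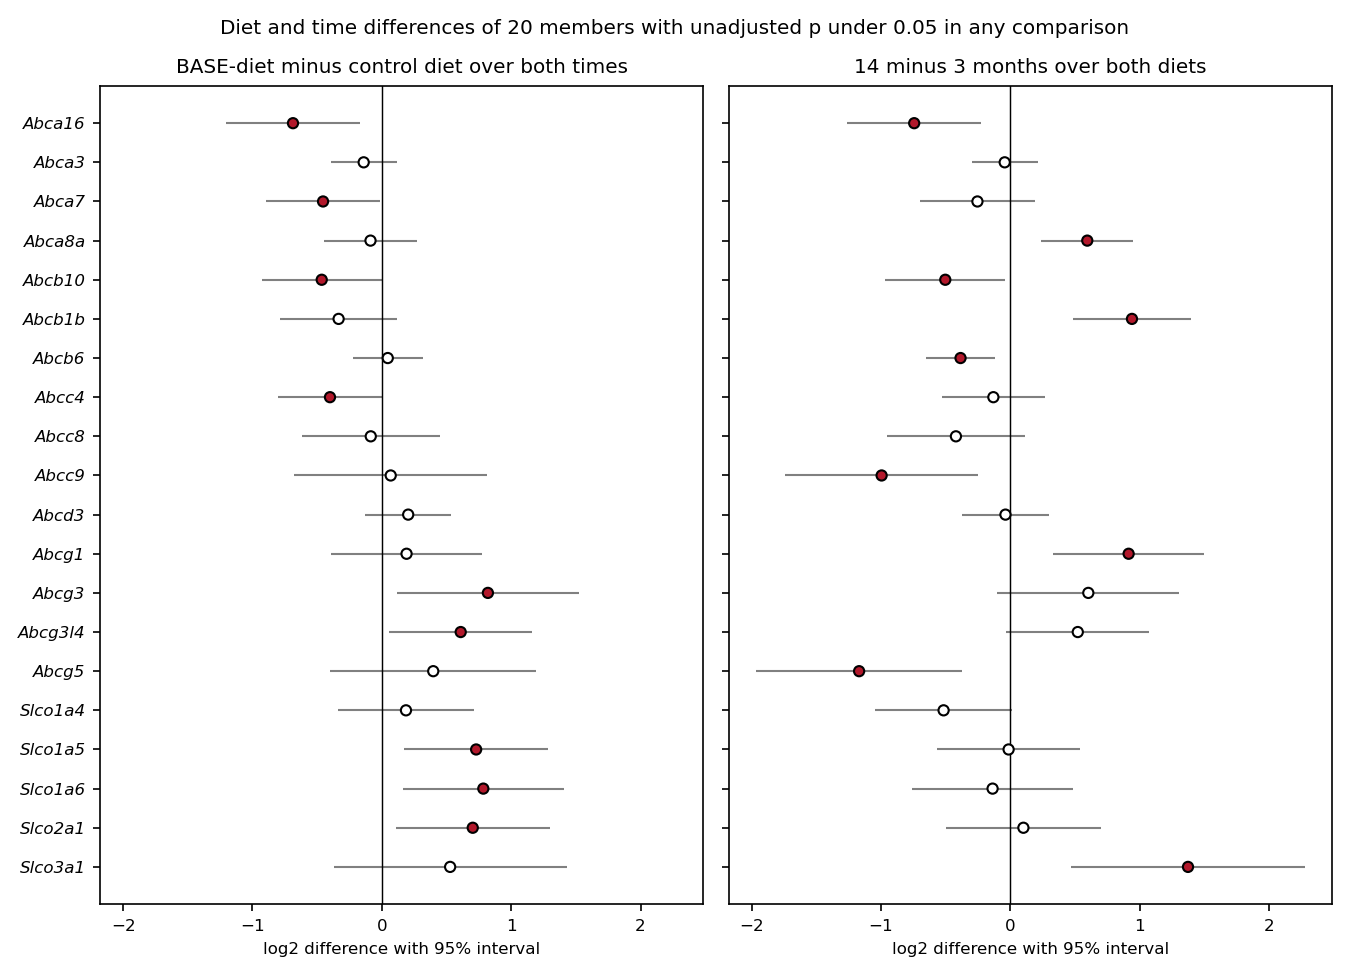
Log2 difference (x axis, point) and 95% interval (line) of 20 members with an unadjusted p under 0.05 in any of the 7 comparisons, for diet over both times (left) and time over both diets (right); filled points have such a p in that comparison. Slco1a5, Slco1a6, Slco2a1, Abcg3 and Abcg3l4 lie right of 0 for diet, and Abcb1b, Abcg1, Abca8a and Slco3a1 for time.

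Over both times, diet gave 9 of 49 members at an unadjusted p under 0.05, 5 higher and 4 lower, against 7.19% of all probes (5.53% higher and 1.66% lower). The higher ones were Slco1a5, Slco1a6, Slco2a1, Abcg3 and Abcg3l4, with differences between 0.61 and 0.82. Without CD 3 rat 4, Slco2a1 went from 0.70 to 0.46, Abcg3 from 0.82 to 0.52 and Abcg3l4 from 0.61 to 0.37, and the other Abcg3l4 probe gave 0.17 ± 0.20. The lower ones were Abca16, Abcb10, Abca7 and Abcc4. Abca16 differed by -0.69, but by 0.74 in the Cy5 channel alone and by 0.00797 with slide as a block. Abca7, a lipid transporter of phagocytes, differed by -0.45 ± 0.21 and Abcc4, a sinusoidal pump of bile acids and cyclic nucleotides, by -0.40 ± 0.19 (limma, adjusted p = 0.686 for both). Abca7 was at -0.29 without CD 3 rat 4, and Abcc4 at -0.05 in the Cy5 channel alone. The count was 3 with slide as a block, 5 without CD 3 rat 4 and 2 without the 5 arrays of outlying signal. The share of all probes at those settings is not given here.

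The remaining sinusoidal efflux pumps showed small differences between diets. Over both times Abcc1 differed by -0.23 (95% interval -0.60 to 0.15), Abcc5 by -0.22 (95% interval -0.89 to 0.46) and Abcc6 by 0.10 (95% interval -0.27 to 0.46). Other probes gave 0.05 ± 0.20 for Abcc1 and 0.12 ± 0.22 for Abcc5, of opposite sign. With time over both diets Abcc5 differed by 0.40 ± 0.33, and by 0.66 ± 0.22 on its other probe (limma, adjusted p = 0.629 and 0.215). Abcc1 and Abcc5 export glutathione conjugates and cyclic nucleotides. Of the 4 tested genes of that list, 1 (Abcc4) was lower at an unadjusted p under 0.05, against 1.66% of all probes. The 4 genes of classes E and F, Abce1, Abcf1, Abcf2 and Abcf3, had such a p in 0 of the 7 comparisons, and so few genes allow no reading against the share of all probes.

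The diet difference itself was compared between the times. Of 49 members 2 had an unadjusted p under 0.05, both lower, against 4.8% of all probes (2.48% higher and 2.32% lower). Abcg1 was 0.86 ± 0.42 higher on the BASE-diet at 3 months and -0.47 ± 0.38 at 14 months, and the diet by time term was -1.33 ± 0.56 (limma, adjusted p = 0.998). With 1 array left out this term ran from -1.68 to -0.96. Abca8a had 0.29 ± 0.25 and -0.47 ± 0.23, with a term of -0.76 ± 0.34 (adjusted p = 0.999). All 6 macrophage markers had a diet by time term below 0, with a median of -0.94. So did all 4 tested markers of the sinusoidal endothelium, with a median of -0.66, and 5 of 6 hepatocyte markers, with a median of -0.19. The term was above 0 for 3 of 3 red cell markers and 4 of 5 stellate cell and fibroblast markers, with medians of 0.34 and 0.30. It was above 0 for 2 of 4 cholangiocyte and 1 of 3 lymphocyte markers, with medians of 0.27 and -0.17. For the 1 tested pancreas marker it was 0.92. None of these markers had an unadjusted p under 0.05 for this term, and the part of these cells in it was not tested.

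Genes that work beside the members were taken from lists by function. Of 16 other hepatobiliary transporters, 10 were tested. Between BD 3 and CD 3, 1 was higher and 1 lower at an unadjusted p under 0.05 (4.99% and 2.11% of all probes), and likewise between CD 14 and CD 3 (6.85% and 3.29%), while between BD 14 and CD 14 there were 0 (4.6% in all). Ostbeta, a subunit of the basolateral bile acid exporter, was lower in CD 14 than in CD 3 by -0.65 ± 0.21 and lower in BD 3 than in CD 3 by -0.50 ± 0.22 (limma, adjusted p = 0.279 and 0.653). Atp8b1, the canalicular phospholipid flippase, was higher in BD 3 than in CD 3 by 1.42 ± 0.54 and in CD 14 than in CD 3 by 1.16 ± 0.52 (adjusted p = 0.555 and 0.454). For each gene both comparisons share the CD 3 rats. The CD 3 mean was 0.76 for Ostbeta and -1.72 for Atp8b1. The means of the other groups ran from 0.04 to 0.27 for Ostbeta and from -0.56 to -0.30 for Atp8b1. Between the diets at 14 months Ostbeta differed by -0.07 ± 0.20 and Atp8b1 by 0.13 ± 0.49. All 18 regulators and scaffolds were tested. Between BD 3 and CD 3, 0 were higher and 1 lower at an unadjusted p under 0.05 (4.99% and 2.11% of all probes). Between BD 14 and CD 14, 2 were higher and 0 lower (3.79% and 0.803%). For diet over both times, 4 were higher and 1 lower at that p, against 5.53% of all probes higher and 1.66% lower. The higher ones were Nr1i3, the nuclear receptor CAR, at 0.82 ± 0.34, Nr0b2, the repressor SHP, at 0.73 ± 0.32, Keap1, which holds Nrf2 in check, at 0.62 ± 0.25, and Hnf4a, a hepatocyte factor, at 0.52 ± 0.21. The lower one was Nfe2l2, which encodes Nrf2, at -0.31 ± 0.12. Their adjusted p lay between 0.627 and 0.660. With time over both diets Nr1i3 was lower by -1.20 ± 0.34 and Nfe2l2 higher by 0.40 ± 0.12 (adjusted p = 0.143 and 0.183).

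Members differed in how much they varied between rats of a group. The residual SD ran from 0.25 for Abca3 to 1.40 for Abcb9, with a median of 0.63 over the members and 0.53 over all tested probes. Abcb6 and Abca2 were also among the steadiest, at 0.27 and 0.29, and Slco3a1 and Abcf3 among the most variable, at 1.09 and 1.10.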

How the data were processed

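The arrays were Agilent 8x60K rat arrays with 2 dyes, 1 for each of 22 livers. The authors extracted the spots with Feature Extraction (10.7.3.1 per the labels, 10.10.1.1 per the file headers), and deposited the processed intensity of each dye, background-subtracted and Lowess-normalized, and the log10 ratio of Cy5 to Cy3, which is 0 where neither dye was above background. Labels and methods both give a common reference and an array for each animal, but 1 sentence of the methods puts control rats in Cy3 and BASE-diet rats in Cy5 of the same arrays. The labels (rat in Cy5, reference in Cy3) were followed, and the meaning of each ratio rests on them. The authors' table of significant entries was not used. Here the log10 ratio was turned to log2, control spots and those marked non-uniform were dropped, and replicate spots were combined as their mean. A probe was well above background where at least 0.5 of its spots were so in Cy5. For 2 arrays the probes were annotated with older names, and the members are the same under both.

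The model was fitted in R 4.3.3 with limma 3.58.1 (4 group means, eBayes, Benjamini-Hochberg, threshold 0.05, 95% intervals). Tables and plots used Python 3.11.15, numpy 2.4.6, pandas 2.3.3, scipy 1.17.1 and matplotlib 3.10.9. The fit was tested on simulated data with 200 changed probes. The members and lists were chosen with earlier results of these data known. Named are the members of the lists of canalicular, sinusoidal, uptake and peroxisomal genes, every member with an unadjusted p under 0.05, and genes of the other 2 functional lists by the same p. Results of 2 members are counted but not reported here by name. Current symbols were found by accession for 56 members, and promoters come from RefSeq. Alternatives were normexp (offset 50) with loess, the Cy5 channel alone, median centring, other filters, non-uniform spots, an intensity trend, array weights, slide or rat number as a block, only 2 groups, 1 probe for each gene, the F test of the methods followed by Tukey's HSD and each array left out. Chosen after seeing the data were leaving out the 5 arrays of outlying signal (over 80% or under 60% of spots well above background) and the slide of all BD 14 arrays alone. The number of arrays limits the precision.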

Additional observations from a re-analysis of the deposited data

Results flagged for a closer look

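In 124 groups of named members, 8 held a rat far from the others by Dixon's criterion (0.71 for 5 rats and 0.625 for 6), and chance flags about 1 in 20 groups. In CD 3 these were Abcc4 in rat 2 at -0.83 and Slco1a6 in rat 4 at -1.76, the latter on the array with the lowest signal. In BD 3 they were Abca8a in rat 2 at -0.33 and Abcc6 in rat 5 at -0.64. In CD 14 it was Abca16 in rat 6 at 1.36. In BD 14 they were Abca8a in rat 2 at 1.22, Abcb11 in rat 2 at 1.44 and Slco1a6 in rat 4 at 1.99. Rat 2 of BD 14 was thus the highest of its group for both Abca8a and the bile salt export pump.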

How the results depend on the processing

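The 40 member differences with an unadjusted p under 0.05 gave 1376 values under other settings, of which 1360 kept their direction and their side of the adjusted threshold, 11 passed it and 5 turned. None of the 40 had passed it before, so keeping their side means only that they still did not pass. Size was not part of this count. With slide as a block, Abcb6 and Abca16 for time over both diets kept their direction but became much smaller. In the Cy5 channel alone Abca16 turned to 1.75 between BD 3 and CD 3, 0.85 between CD 14 and CD 3 and 0.74 for diet over both times, and Abca3 to 0.10 between BD 14 and CD 14. With slide as a block Abca16 for diet over both times was 0.00797. The causes were not tested. Members past the adjusted threshold numbered 0 and became 2 (Cy5 channel alone) and 1 (array weights) for time over both diets, 1 each with the Cy5 channel alone, array weights and only the 2 groups for BD 14 with BD 3, and 1 with the Cy5 channel alone for BD 3 with CD 3. With an array left out they ran from 0 to 1 for time over both diets and from 0 to 2 for CD 14 with CD 3.

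The share of all probes under other settings is not given here, so the member counts below are not read against it. At an unadjusted p under 0.05, the counts that moved by over 1.5 times were these. With slide as a block they were 3 for time over both diets (10 before), 3 for diet over both times (9), 3 for CD 14 with CD 3 (8) and 5 for diet by time (2). With array weights they were 4 for diet over both times, 5 for BD 14 with BD 3 (3), 11 for BD 14 with CD 14 (5), 1 for BD 3 with CD 3 (3), 5 for CD 14 with CD 3 and 4 for diet by time. The Cy5 channel alone gave 7 for BD 14 with BD 3, 8 for BD 3 with CD 3 and 5 for diet by time, and normexp with loess 5 for BD 3 with CD 3. Only the 2 groups gave 7 for BD 14 with BD 3. Without the arrays of outlying signal there were 2 for diet over both times, 5 for BD 14 with BD 3 and 8 for diet by time. The methods' analysis of variance F test, followed by Tukey's HSD, gave 1 for BD 14 with BD 3, 0 for BD 14 with CD 14, 0 for BD 3 with CD 3 and 2 for CD 14 with CD 3. With an array left out the counts ran from 8 to 12 for time, 5 to 12 for diet, 2 to 5 for BD 14 with BD 3, 2 to 7 for BD 14 with CD 14, 0 to 7 for BD 3 with CD 3, 5 to 11 for CD 14 with CD 3 and 0 to 9 for diet by time.

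Rats of the same number share only a number. Their deviations from the group means had a median r of -0.02 over 31 pairs of arrays, and other pairs -0.02. With a replicate block the counts were 5 for BD 14 with BD 3 and 3 for BD 14 with CD 14, and no member passed the adjusted threshold. The 18 members that were not tested were well above background on 0 to 14 of the 22 arrays, and no difference is given for them.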
